A study of Mus musculus with 6 samples.

Results

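The genes described here are 6 mouse genes of MHC class II antigen presentation. They are Ciita, Cd74, H2-Aa, H2-Ab1, H2-Eb1 and H2-DMa. Members were all probe sets whose platform annotation gives 1 gene symbol, that symbol being 1 of these 6. The rule found 14 of 45037 probe sets, for 6 of 18193 genes. They were measured on Affymetrix arrays in marrow progenitors sorted by a Hes1 reporter, with 3 arrays of GFP-positive cells and 3 of GFP-negative cells. Both groups were lineage-negative, cKit+, Sca1- cells (the gate for myeloerythroid progenitors) from male mice aged 6 weeks with genotype Hes1 GFP/WT. All cells therefore carried the reporter allele, and the groups differ by its fluorescence. The labels do not say whether arrays came from separate animals or from pools, so the p-values cover only the spread among these arrays, which may be technical.

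MHC class II molecules present peptides from the endocytic route to CD4 T cells, and in marrow-derived cells they are known from B cells, dendritic cells and activated macrophages. An alpha and a beta chain assemble on the invariant chain, encoded by Cd74, which carries them to late endosomes. There the DM heterodimer exchanges the remaining invariant chain fragment, called CLIP, for an antigen peptide. The coactivator CIITA does not bind DNA itself. It is recruited to class II, invariant chain and DM promoters by the RFX complex, CREB-type factors and NF-Y, which occupy the X1, X2 and Y boxes of a shared promoter module.

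Promoter sequences are shown for H2-Aa and H2-Eb1, an alpha and a beta chain gene that were both lower in GFP-positive arrays. Their windows hold letter matches to boxes of this module. The windows run from 250 bases before to 50 bases after the gene start (RefSeq, GRCm38.p6) and are written 5′ to 3′ on the gene's strand. Capitals mark matches on either strand to 3 motifs, whose letters were chosen after these sequences had been seen. The motifs are GATTGG for the Y box core, ACNGATG for the X1 box core and TGACGTCA for the X2 box.
H2-Aa promoter, chr17:34287774-34288073, minus strand: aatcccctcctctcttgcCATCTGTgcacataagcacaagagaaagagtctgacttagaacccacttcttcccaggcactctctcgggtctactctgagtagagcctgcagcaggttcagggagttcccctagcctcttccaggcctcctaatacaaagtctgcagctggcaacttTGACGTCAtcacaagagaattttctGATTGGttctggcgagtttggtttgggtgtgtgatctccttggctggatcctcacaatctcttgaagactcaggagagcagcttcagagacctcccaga
H2-Eb1 promoter, chr17:34305617-34305916, plus strand: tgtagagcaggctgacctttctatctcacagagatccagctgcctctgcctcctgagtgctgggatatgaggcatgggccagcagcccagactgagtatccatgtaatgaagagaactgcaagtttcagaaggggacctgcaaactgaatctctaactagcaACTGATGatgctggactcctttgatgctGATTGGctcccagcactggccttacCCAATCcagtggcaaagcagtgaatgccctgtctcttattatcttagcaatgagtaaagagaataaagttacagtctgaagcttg

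In H2-Aa the X2 match spans -74 to -67 relative to the start and the Y core -49 to -44, with 17 bases between them. A match to the X1 core letters on the opposite strand of H2-Aa lies apart from them, at -232 to -226, with 176 bases before the Y core. It is not taken as the X1 box of the module. In H2-Eb1 the X1 core spans -88 to -82 and the Y core -60 to -55, with 21 bases between them. A second Y core, on the opposite strand, lies at -35 to -30 of H2-Eb1. No 2 of these matches overlap. Among 32544 distinct promoter windows of the same length, 16.1% hold the Y core, 9.87% the X1 core and 1.8% the X2 box on either strand. Of the 2 windows listed for H2-DMa, 1 holds a Y core, at -199 to -194. The matches describe letters and do not show binding. Windows matched 3 of the 6 genes, and Ciita, Cd74 and H2-Ab1 had no entry used here.

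Values are log2 of the intensities that the authors normalized with RMA. The median of an array lay between 5.90 and 6.02 on this scale. Hes1, the locus of the reporter, was at 7.20, 7.12 and 7.13 in GFP-positive arrays and at 5.74, 6.01 and 5.90 in GFP-negative arrays, in the direction of the labels. Kit, one of the sort markers, was at 11.13 to 11.24 in GFP-positive and 11.31 to 11.53 in GFP-negative arrays. The lineage marker Itgam was at 3.96 to 4.45 in GFP-positive and 3.83 to 4.29 in GFP-negative arrays, below every array's median. A single array in each group stood apart for immunoglobulin signal. Jchain, the joining chain of secreted antibodies, was at 8.65 in GFP-positive array 1 against 3.69 and 3.64 in the other GFP-positive arrays, and at 8.85 in GFP-negative array 3 against 3.88 and 4.08. Results on the class II genes are given with and without this pair, called the Ig-bearing arrays.

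Of the 6 genes, 4 were lower in GFP-positive arrays and 2 passed the test in neither direction. The chaperone Cd74 was 3.27-fold lower, the peptide exchange chain H2-DMa 2.91-fold, the beta chain H2-Eb1 2.01-fold and the alpha chain H2-Aa 1.55-fold at its brightest probe set. H2-Ab1, the beta chain that pairs with H2-Aa, differed by -0.07 on the log2 scale, and Ciita by 0.10. Counted by probe set, 7 of 14 were lower and 0 higher (limma, Benjamini-Hochberg adjusted p under 0.05 over all 45037 probe sets; 0 others were higher at an unadjusted p under 0.05). Over all probe sets 7.66% were called lower and 6.35% higher. The median log2 difference was -0.40 over the 14 probe sets, against 0.09 over all probe sets. In such bulk samples, fewer cells of a type and less RNA per cell cannot be told apart.

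**Figure D1:**
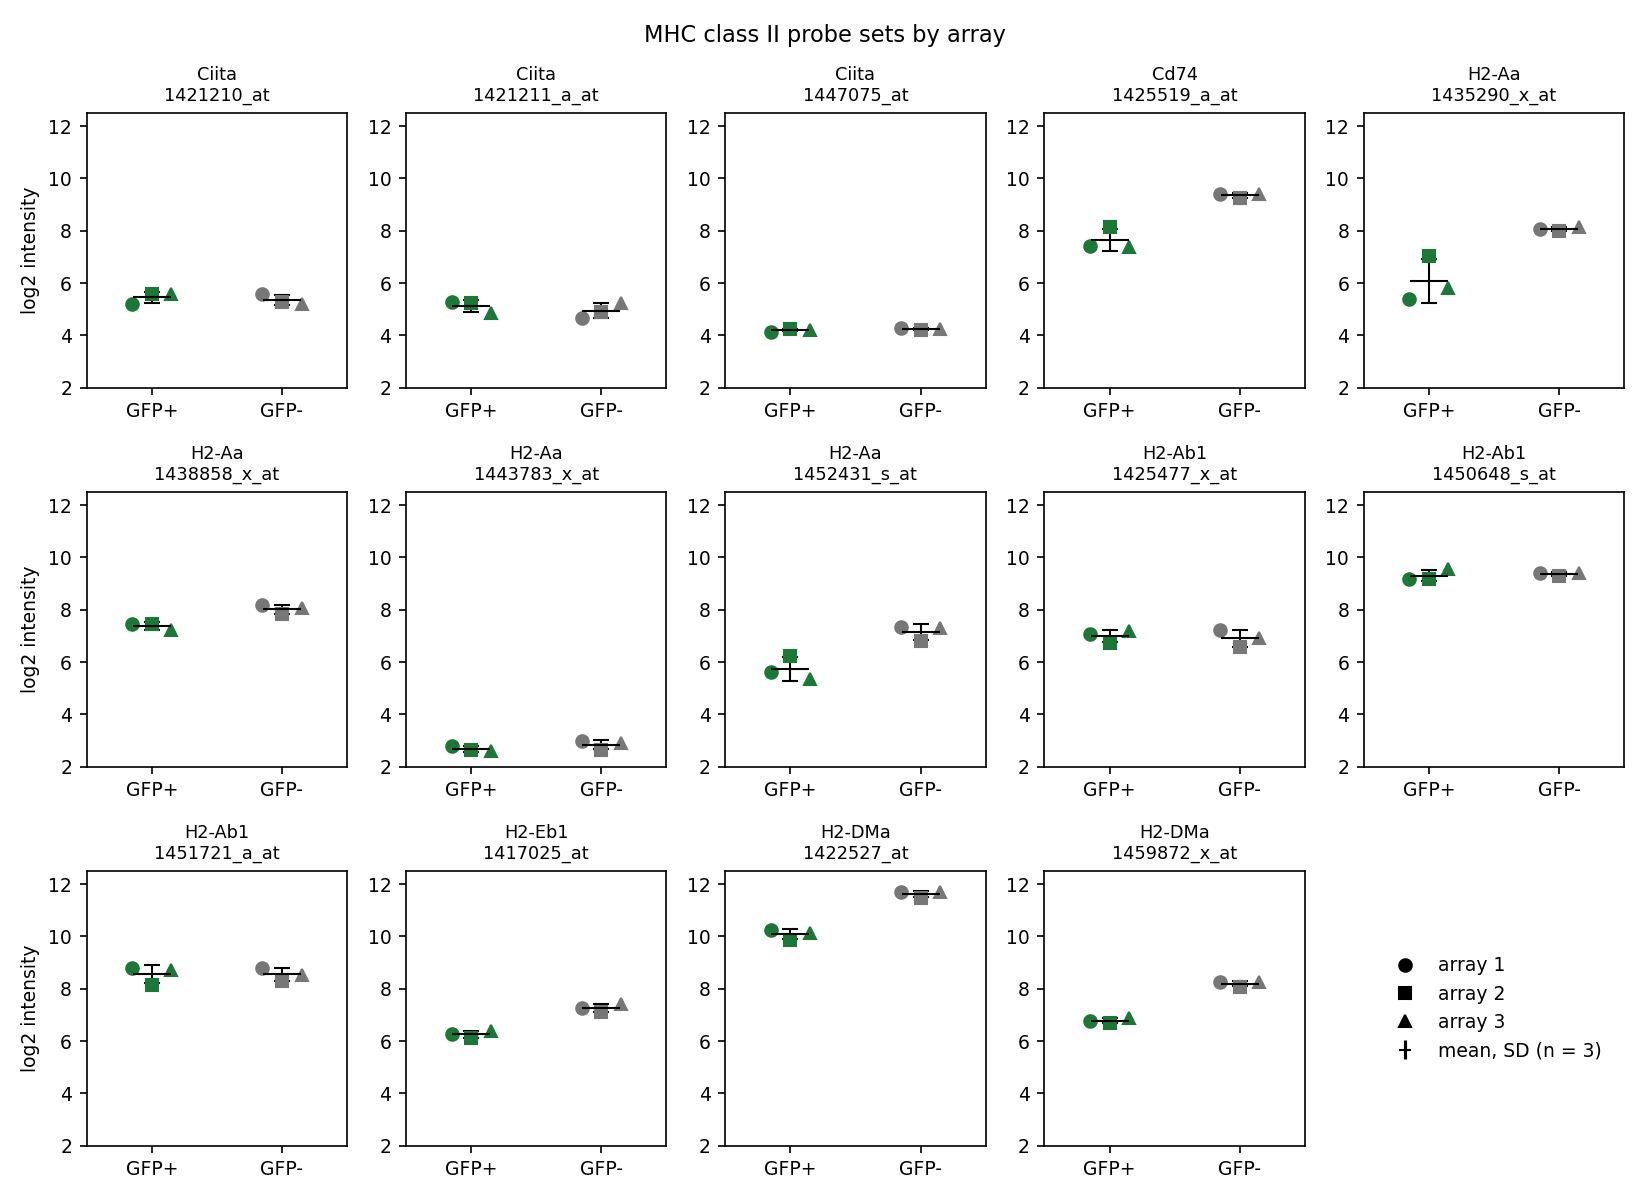
Log2 intensity (vertical axis) of the 14 class II probe sets in the 3 GFP-positive (green) and 3 GFP-negative (grey) arrays, with mean and SD (n = 3). For Cd74, H2-Eb1, both H2-DMa probe sets and 3 of 4 H2-Aa probe sets, every green point lies below every grey point, and the other panels overlap. Over all probe sets 14.2% were separate in this direction and 24.3% in the other.

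Cd74 encodes the invariant chain, the chaperone of newly made class II dimers. Its probe set 1425519_a_at was at 7.43, 8.13 and 7.38 in GFP-positive arrays 1 to 3, against 9.39, 9.26 and 9.42 in GFP-negative arrays. The groups did not overlap, as was so for 14.2% of all probe sets in this direction and 24.3% in the other, and GFP-positive array 2 lay nearest to the GFP-negative arrays. The mean was 7.65 ± 0.42 in GFP-positive and 9.35 ± 0.08 in GFP-negative arrays (SD, n = 3 each), a log2 difference of -1.71 with a 95% interval of -2.22 to -1.20 (limma adjusted p = 0.00451). With any 1 array left out the adjusted p was at most 0.0233. Once both Ig-bearing arrays were left out the difference was -1.57 and its adjusted p 0.0625.

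H2-DMa encodes the alpha chain of DM, the peptide exchange factor, and both of its probe sets were lower. Probe set 1422527_at was at 10.26, 9.86 and 10.14 in GFP-positive arrays, against 11.69, 11.49 and 11.71 in GFP-negative arrays. Probe set 1459872_x_at was at 6.76, 6.69 and 6.88 in GFP-positive arrays, against 8.24, 8.07 and 8.24 in GFP-negative arrays. The groups were separate at both, as for 14.2% of all probe sets in this direction, and array 2 was the lowest of its group in each case. The log2 differences were -1.54 (95% interval -1.87 to -1.22, adjusted p = 0.00165) and -1.41 (-1.65 to -1.16, adjusted p = 0.00118). H2-DMa was the member gene that kept its calls with any 1 array left out and also once both Ig-bearing arrays were left out, with differences of -1.59 and -1.37 (adjusted p = 0.0260 and 0.0263).

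H2-Eb1 encodes the beta chain of the E molecule. Its probe set 1417025_at was at 6.26, 6.12 and 6.38 in GFP-positive arrays, against 7.26, 7.10 and 7.43 in GFP-negative arrays. The groups did not overlap, the lowest GFP-negative array being above the highest GFP-positive one, as for 14.2% of all probe sets. The log2 difference was -1.01 (95% interval -1.31 to -0.71, adjusted p = 0.00450). It kept its call with any 1 array left out (adjusted p at most 0.0193), and once both Ig-bearing arrays were left out it was -0.93 (adjusted p = 0.0519).

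H2-Aa encodes the alpha chain of the A molecule and has 4 probe sets, of which 3 were lower. Probe set 1435290_x_at was at 5.39, 7.03 and 5.81 in GFP-positive arrays, against 8.08, 7.98 and 8.16 in GFP-negative arrays. Probe set 1452431_s_at was at 5.62, 6.24 and 5.35 in GFP-positive arrays, against 7.35, 6.81 and 7.30 in GFP-negative arrays. At both, GFP-positive array 2 was the highest of its group, as it was for Cd74, whereas it was the lowest of its group at H2-DMa and H2-Eb1. Probe set 1438858_x_at, of highest mean, was at 7.47, 7.47 and 7.22 in GFP-positive arrays, against 8.17, 7.84 and 8.05 in GFP-negative arrays. The 3 agreed in direction but not in size, with log2 differences of -1.99 (95% interval -2.96 to -1.03), -1.42 (-2.05 to -0.79) and -0.63 (-0.94 to -0.32). Their adjusted p-values were 0.0233, 0.0177 and 0.0247. An Affymetrix suffix of _x_at marks probe sets that can also bind unrelated transcripts, and _s_at those shared by several transcripts. The remaining probe set, 1443783_x_at, lay near the dim end in both groups, at no more than 2.78 in GFP-positive and 2.99 in GFP-negative arrays (adjusted p = 0.389).

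H2-Aa lost calls when single arrays were left out, where Cd74, H2-Eb1 and H2-DMa kept theirs. For 1435290_x_at the adjusted p was 0.0640, 0.0688 and 0.0802 without GFP-negative array 1, 2 or 3, and 0.0733 without GFP-positive array 3. For 1452431_s_at it was 0.0549 and 0.0669 without GFP-negative array 1 or 3, and 0.0545 without GFP-positive array 1. For 1438858_x_at it was 0.0621 and 0.0866 without GFP-negative array 1 or 3, and 0.0586 and 0.0716 without GFP-positive array 2 or 3. Once both Ig-bearing arrays were left out, the log2 differences of the 3 were -1.61, -1.29 and -0.66 (adjusted p = 0.130, 0.147 and 0.134). The direction was the same in each of these settings.

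H2-Ab1 encodes the beta chain of the A molecule, the partner of the H2-Aa product, and none of its 3 probe sets passed the test. Probe set 1450648_s_at was at 9.17, 9.18 and 9.55 in GFP-positive arrays, against 9.40, 9.29 and 9.42 in GFP-negative arrays. Probe set 1451721_a_at was at 8.80, 8.16 and 8.73 in GFP-positive arrays, against 8.80, 8.30 and 8.53 in GFP-negative arrays. The groups overlapped at both, and array 2 was the lowest of each group at 1451721_a_at. Probe set 1425477_x_at was at 7.06, 6.74 and 7.20 in GFP-positive arrays, against 7.21, 6.58 and 6.93 in GFP-negative arrays. The suffix limits given for H2-Aa also apply to 1425477_x_at and to 1450648_s_at, which stands for H2-Ab1 in the comparison below. The 95% intervals of the 3 log2 differences were -0.39 to 0.25, -0.50 to 0.54 and -0.38 to 0.57 (adjusted p = 0.745, 0.959 and 0.775). All 3 intervals lie above -0.63, the smallest of the called differences in the other genes, that of H2-Aa 1438858_x_at. The interval of that difference, -0.94 to -0.32, overlaps all 3 H2-Ab1 intervals, so this does not show unequal change.

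The differences of the called genes were set against that of H2-Ab1 within each array, with 1 probe set a gene. Relative to H2-Ab1, the log2 difference was -1.64 for Cd74, -1.47 for H2-DMa, -0.94 for H2-Eb1 and -0.56 for H2-Aa. In each of these 4 comparisons the groups did not overlap, and the 2-sided exact permutation p was 0.1 (0.1 after adjustment), the smallest that 3 arrays against 3 allow. The test can therefore not reach 0.05 in this design. It addresses unequal change and not whether either gene changed alone. The 4 genes and H2-Ab1 were chosen with their calls in these same arrays known. The separation therefore gives no further support for unequal change, and no share over all genes was computed for such differences. Brightness differs between probe sets for reasons of their own, so the levels of different genes were not ranked.

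Ciita encodes the coactivator that sets class II transcription, and its 3 probe sets were below the array median in all 6 arrays. The brightest, 1421210_at, was at 5.21, 5.56 and 5.58 in GFP-positive arrays, against 5.58, 5.28 and 5.19 in GFP-negative arrays. Probe set 1421211_a_at was at 5.27, 5.22 and 4.86 in GFP-positive arrays, against 4.68, 4.91 and 5.23 in GFP-negative arrays. The groups overlapped at both. The third, 1447075_at, ran from 4.14 to 4.23 in GFP-positive and from 4.19 to 4.26 in GFP-negative arrays. The log2 differences were 0.10, 0.18 and -0.04, with 95% intervals of -0.27 to 0.48, -0.26 to 0.61 and -0.24 to 0.17 (adjusted p = 0.689, 0.545 and 0.782). No difference in Ciita passed the test, and the intervals allow differences of up to 0.61 on the log2 scale, so an absence of one is not shown.

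**Figure D2:**
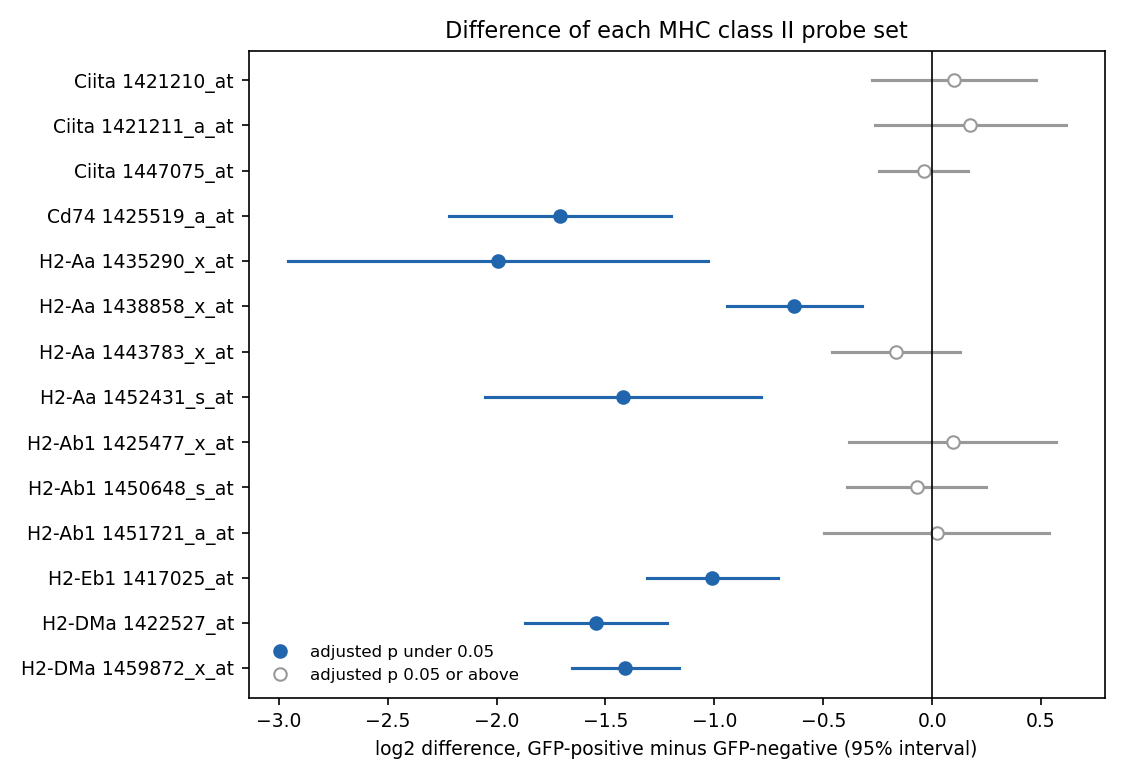
Log2 difference of GFP-positive minus GFP-negative arrays (horizontal axis) for each of the 14 class II probe sets, with its 95% interval from limma. Filled points, at -1.99 to -0.63, passed an adjusted p of 0.05, and the open points of Ciita and H2-Ab1 have intervals that include 0, as has 1 dim H2-Aa probe set.

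Other class II chains were lower as well. Of 4 measured, 3 fell and 0 rose, with a median log2 difference of -1.79, against 0.11 over all genes. With 1 probe set a gene, 9.92% of all genes were called lower and 8.15% higher. H2-DMb2, a beta chain of DM, was at 6.89, 7.56 and 6.32 in GFP-positive arrays, against 9.43, 8.66 and 9.84 in GFP-negative arrays. H2-Ob, the beta chain of the DM inhibitor DO, was at 7.79, 7.87 and 8.77 in GFP-positive arrays, against 10.17, 10.23 and 10.77 in GFP-negative arrays. H2-Oa, the alpha chain of DO, was at 8.49, 7.86 and 8.42 in GFP-positive arrays, against 9.62, 9.43 and 9.70 in GFP-negative arrays. Groups were separate for each of these genes, as for 14.2% of all probe sets in this direction. Their levels were lower by factors of 5.22, 4.74 and 2.51 (adjusted p = 0.0129, 0.00584 and 0.00720). All 3 probe sets of H2-DMb2 were called lower. The 3 genes kept their calls with any 1 array left out, and once both Ig-bearing arrays were left out their adjusted p was 0.108, 0.0580 and 0.0534. H2-Eb2 was at 5.05 to 5.88 in GFP-positive and 4.92 to 5.24 in GFP-negative arrays (adjusted p = 0.359).

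Of 7 factors that hold CIITA at promoters, 2 fell and 1 rose, with a median of 0.04, beside 9.92% of all genes called lower and 8.15% higher. None of the 3 calls held once both Ig-bearing arrays were left out (adjusted p = 0.0709 for Rfx5, 0.0700 for Rfxap and 0.209 for Nfya). Rfx5, the large RFX subunit, was 1.59-fold lower (10.90 ± 0.12 in GFP-positive and 11.57 ± 0.08 in GFP-negative arrays, SD, n = 3 each; adjusted p = 0.00966). Rfxap, a further RFX subunit, rose 1.74-fold (9.61 ± 0.10 in GFP-positive and 8.81 ± 0.22 in GFP-negative arrays; adjusted p = 0.0133). Of the 2 Rfxap probe sets, 1 was called. Nfya, the DNA-binding subunit of NF-Y, was 1.30-fold lower (adjusted p = 0.0416), with 1 of its 3 probe sets called. The call failed on leaving out any single array (0.0688 to 0.131). The third RFX subunit Rfxank and the NF-Y subunits Nfyb and Nfyc did not pass at their brightest probe sets.

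Among regulators of interferon signalling and of antigen-presenting cells, 4 of 12 fell and 1 rose, beside 9.92% and 8.15% of all genes. Their median was -0.24. Leaving out both Ig-bearing arrays gave 3 lower and 0 higher. Irf8, a transcription factor of monocyte and dendritic development, was at 9.57 ± 0.27 in GFP-positive and 11.99 ± 0.02 in GFP-negative arrays, 5.37-fold lower (adjusted p = 0.00108). Spi1, which encodes PU.1, was 3.71-fold lower (7.27 ± 0.15 in GFP-positive and 9.16 ± 0.17 in GFP-negative arrays; adjusted p = 0.00113). Irf1, an interferon-induced factor that acts on Ciita, was 3.02-fold lower (8.10 ± 0.16 in GFP-positive and 9.70 ± 0.08 in GFP-negative arrays; adjusted p = 0.00118). Bcl6, a transcriptional repressor chosen after its values were seen, differed by -1.44 (log2), with an adjusted p of 0.0149, of 0.0561 without GFP-negative array 2 and of 0.0516 without GFP-positive array 3. Zbtb46, a factor of classical dendritic cells, rose by 1.66 (adjusted p = 0.0113). At their brightest probe sets, neither interferon-gamma receptor gene passed, with log2 differences of 0.15 for Ifngr1 and -0.74 for Ifngr2. The kinases Jak1 (0.07) and Jak2 (0.10) did not pass there either, while 1 of the 2 Jak2 probe sets was called higher.

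Proteases and turnover genes of the class II route split evenly. Of 12, 4 were lower and 4 higher, beside 9.92% and 8.15% of all genes, with a median of 0.14. Leaving out both Ig-bearing arrays gave 1 lower, Ctss, and 1 higher, Cd82. Ctss, the protease that trims the invariant chain to CLIP, was 5.00-fold lower (9.19 ± 0.48 in GFP-positive and 11.51 ± 0.05 in GFP-negative arrays; adjusted p = 0.00241). Lgmn, an asparaginyl endopeptidase, was 1.85-fold lower (adjusted p = 0.0298), a call that held on leaving out GFP-negative array 3 or GFP-positive array 1 and failed on leaving out the others (0.0606 to 0.0846). Cd82, a tetraspanin of class II compartments, rose 2.63-fold (adjusted p = 0.00129), with 1 of its 2 probe sets called. Marchf8, a ubiquitin ligase of class II chains, rose 1.99-fold (adjusted p = 0.0115). The other members called, named after their values were seen, were smaller. The cathepsin gene Ctsz was at -0.66 and the cathepsin inhibitor Cst3 at -0.55. The thiol reductase Ifi30 was at 0.77 and the cathepsin gene Ctsl at 0.60, with 1 of 2 Ctsl probe sets called. Each of these 4 lost its call without GFP-negative array 3 (adjusted p = 0.0641, 0.0578, 0.0572 and 0.0641). All except Ifi30 also lost it without GFP-negative array 2 or GFP-positive array 2 or 3 (adjusted p from 0.0508 to 0.0699), Ctsz without GFP-negative array 1 (0.0561) and Ctsl without GFP-positive array 1 (0.0509).

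Class I loading genes were lower where they were called. Of 16 measured, 6 fell and 0 rose, beside 9.92% and 8.15% of all genes. The median was -0.40, and 3 of the 16 were lower with both Ig-bearing arrays left out. In that setting calls over all probe sets fell as well, from 3452 to 1652 lower and from 2860 to 681 higher. Psmb8 and Psmb9, subunits of the immunoproteasome, were lower by factors of 2.35 and 1.93 (adjusted p = 0.00816 and 0.0133). Of the 2 Psmb8 probe sets, 1 was called. Tapbpl, a peptide editor, was 1.74-fold lower, with an adjusted p of 0.0159, a call that failed on leaving out GFP-negative array 2 or 3 (at most 0.0562). Erap1, a peptide-trimming aminopeptidase, was 1.63-fold lower (adjusted p = 0.0205), a call that held on leaving out GFP-positive array 1 and failed on leaving out the others (0.0554 to 0.0696). The class I light chain B2m was at 13.61 ± 0.10 in GFP-positive and 13.71 ± 0.06 in GFP-negative arrays (adjusted p = 0.516).

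Of 9 costimulatory genes and partners of CD74, 4 fell and 0 rose, beside 9.92% and 8.15% of all genes. The median was -0.23, and 2 of the 9 were lower with both Ig-bearing arrays left out. Cd274, which encodes PD-L1, was 2.47-fold lower (8.38 ± 0.22 in GFP-positive and 9.69 ± 0.27 in GFP-negative arrays; adjusted p = 0.00639). Icosl, a ligand of the T cell receptor ICOS, was 3.16-fold lower (adjusted p = 0.0397), with 1 of its 2 probe sets called. The call held on leaving out GFP-negative array 3 or GFP-positive array 1 and failed on leaving out the others (0.0991 to 0.112). Pdcd1lg2, which encodes PD-L2, had an adjusted p of 0.0199, and of 0.0751, 0.0574 and 0.0619 without GFP-negative array 3, GFP-positive array 1 or GFP-positive array 3. Cxcr4, a chemokine receptor reported to bind with CD74, had a log2 difference of -0.35 and its call failed on leaving out any single array (0.0885 to 0.149). The classical costimulators Cd80 and Cd86 lay below the median of every array and did not pass. Over these 6 pathway lists, 29 genes were called, 15 of them kept their call with any 1 array left out, and 10 kept it once both Ig-bearing arrays were left out.

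**Figure D3:**
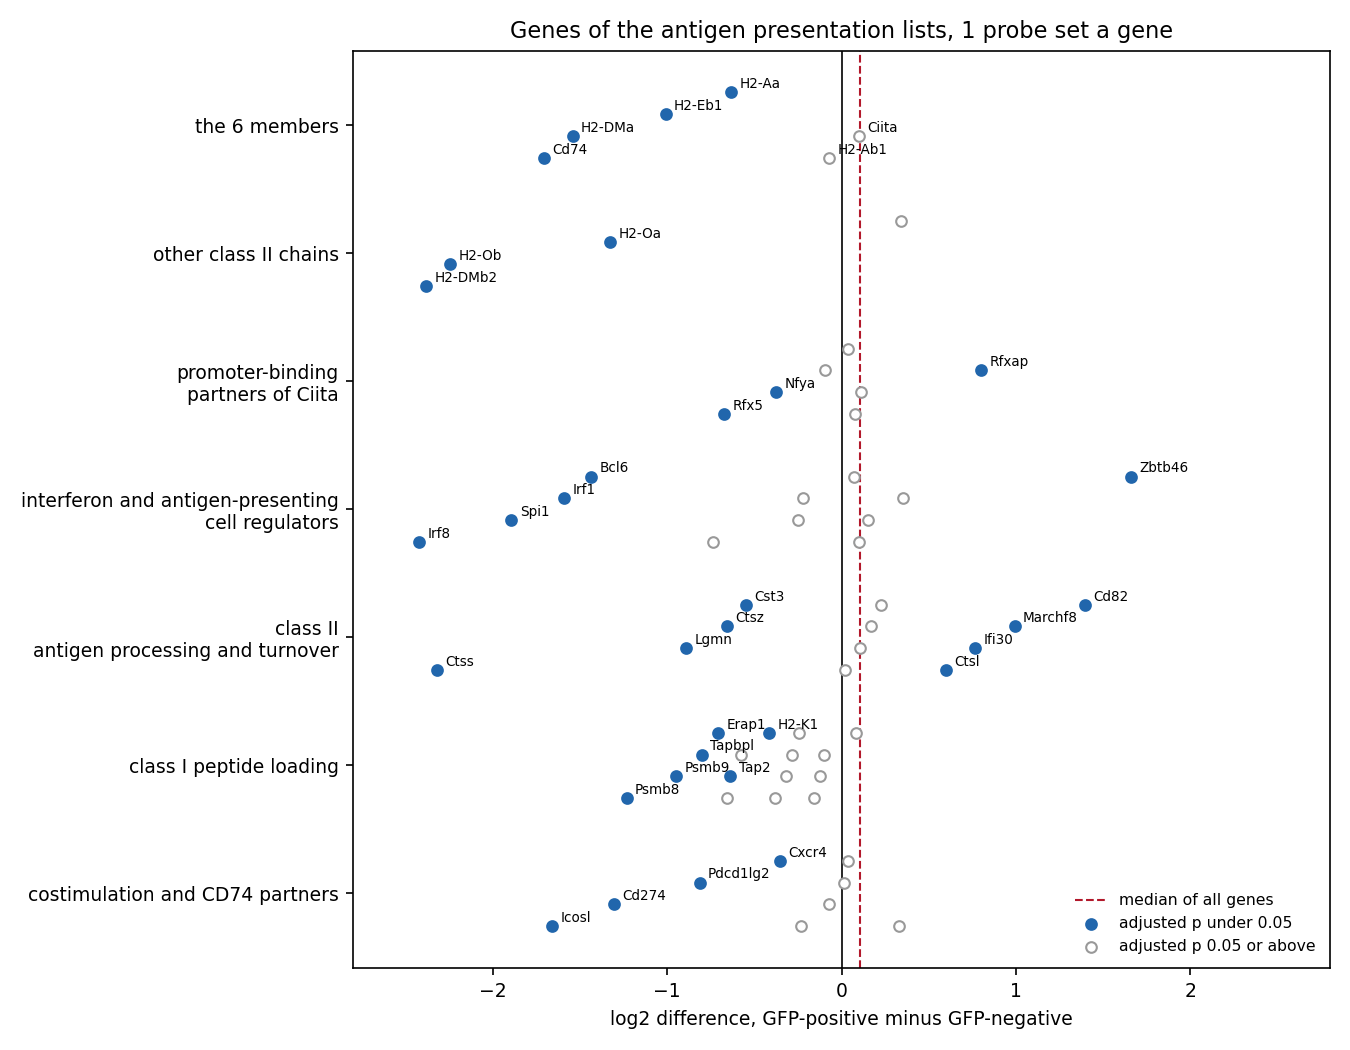
Log2 difference of GFP-positive minus GFP-negative arrays (horizontal axis) for the 6 class II genes and the 6 pathway lists, 1 point a gene, with called genes filled and named. Most named class II chains lie between -2.38 and -0.63, H2-Ab1 and Ciita lie near the dashed median of all genes (0.11), and processing genes lie on both sides.

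Some markers of other cells that can carry class II were lower as well, and their part in the class II differences was not tested. Over all genes 9.92% were called lower and 8.15% higher. Of 12 monocyte and macrophage markers, 6 fell and 0 rose, with a median log2 difference of -0.73, and their summed intensity was 4613 to 6884 in GFP-positive and 17445 to 18025 in GFP-negative arrays. Csf1r was 6.69-fold, Cd68 3.51-fold, Ccr2 3.39-fold and Lyz2 3.29-fold lower. Uncalled members went both ways, with log2 differences of 1.83 for Mrc1, 0.78 for C1qb, 0.59 for C1qa and 0.30 for Ms4a7. Adgre1 was at -0.46 and Cd14 at -0.61. The groups did not overlap at Mrc1 and C1qb, as for 24.3% of all probe sets in that direction. With both Ig-bearing arrays left out 2 of the 12, Cd68 and Lyz2, were called, and the adjusted p was 0.0624 for Csf1r and 0.0514 for Ccr2. Of 12 dendritic cell markers, 3 fell and 1 rose, with a median log2 difference of -0.22. Their sums were 8122 to 8577 in GFP-positive and 9963 to 10335 in GFP-negative arrays. The receptor kinase Flt3 was 8.73-fold lower and the lectin Clec10a 5.54-fold lower. Uncalled dendritic markers went both ways, with log2 differences of 0.30 for Xcr1, 0.04 for Ccr9, 0.03 for Cd209a and 0.01 for Batf3. Bst2 was at -0.48, Ccr7 at -0.34, Siglech at -0.15 and Tcf4, the brightest of the list, at -0.29. Itgax had a log2 difference of -0.64, a call that held on leaving out GFP-negative array 3 and failed on leaving out the others (0.0563 to 0.0881), and Zbtb46 rose, as above. With both Ig-bearing arrays left out 2 dendritic markers, Flt3 and Clec10a, were lower and 0 higher. The dendritic markers Siglech, Xcr1 and Cd209a were at 3.34 to 6.11 over all 6 arrays.

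Of 15 B cell markers, 2 fell and 0 rose, a share near that of all genes called lower (9.92%), and the median log2 difference was 0.24. The list summed to 1177 to 1671 in GFP-positive and 2187 to 2671 in GFP-negative arrays. Cd79b, a chain of the B cell receptor and the largest term of the sum, was 3.60-fold lower, at 8.39 to 8.93 in GFP-positive and 10.47 to 10.53 in GFP-negative arrays. By contrast Cd79a, Ms4a1, Vpreb3, Igll1 and Cr2, chosen after their values were seen, had log2 differences of 0.55, 0.34, 0.44, 0.49 and 0.42 that did not pass, with groups that did not overlap, as for 24.3% of all probe sets in that direction. The list's sum was thus lower while its median difference was above 0. Rag2, of the antigen receptor recombinase, had a log2 difference of -0.97, a call that held on leaving out GFP-negative array 2 and failed on leaving out the others (0.0903 to 0.118). The B cell genes Pax5, Ms4a1 and Cd22 were at 3.77 to 5.59 over all 6 arrays, below every array's median. Ebf1 was at 7.30, 6.70 and 7.55 in GFP-positive arrays, against 5.68, 5.43 and 8.72 in GFP-negative arrays, the last an Ig-bearing array. Vpreb1 was at 6.76 to 8.10 in GFP-positive and 7.55 to 8.22 in GFP-negative arrays, above the median of all 6 arrays. Neither Ebf1 nor Vpreb1 passed the test. Of 8 plasma cell and immunoglobulin markers, only Ighm was called, 3.90-fold lower, at 2 of its 11 probe sets, which is again near the 9.92% of all genes. The list summed to 2689 to 5547 in GFP-positive and 4191 to 6050 in GFP-negative arrays. Of the Ig-bearing arrays, GFP-positive array 1 was neither the highest nor the lowest of its group for Cd74 (7.43), and GFP-negative array 3 was the highest of its group (9.42).

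Of 8 red cell progenitor markers, 5 rose and 0 fell, beside 8.15% of all genes higher and 9.92% lower. Their sums were 54661 to 59353 in GFP-positive and 40661 to 41359 in GFP-negative arrays. With both Ig-bearing arrays left out 3 were higher. Epor rose 3.26-fold, Klf1 2.36-fold and Gata1 1.77-fold. Tfrc, at 0.45, had a call that held on leaving out GFP-positive array 1 and failed on leaving out the others (0.0762 to 0.101), and Car1, at 0.38 and named after its values were seen, had one that failed on leaving out any single array (0.0533 to 0.0966). Of 12 T and innate lymphoid markers, 3 rose and 0 fell, with 8.15% of all genes called higher, and the list had sums of 1245 to 1596 in GFP-positive and 636 to 927 in GFP-negative arrays. Gata3 rose 2.75-fold. Rora rose 3.02-fold, at 2 of its 9 probe sets, with an adjusted p of 0.0761 once both Ig-bearing arrays were left out. Cd8b1, at 0.51, had a call that failed on leaving out any single array (0.0628 to 0.104). Bcl11b had the largest log2 difference of the list, 2.75, without passing at its brightest probe set (adjusted p = 0.0566). Of its 4 probe sets 3 were called higher, and the brightest passed once both Ig-bearing arrays were left out (0.0254). Cd3e, Cd3d, Ncr1, Cd8a and Klrb1b had log2 differences of 0.79, 0.64, 0.58, 0.55 and 0.30 that did not pass. Il7r, Cd4 and Cd3g had log2 differences of -0.93, -0.30 and -0.15 that did not pass. Of 6 sort and progenitor surface markers, 4 fell and 0 rose, beside 9.92% and 8.15% of all genes. The 4 were Fcgr2b at -2.31, Fcgr3 at -1.73, Cd34 at -1.37 and Ptprc at -1.28. No marker was listed at 0, since array values always carry background.

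**Figure D4:**
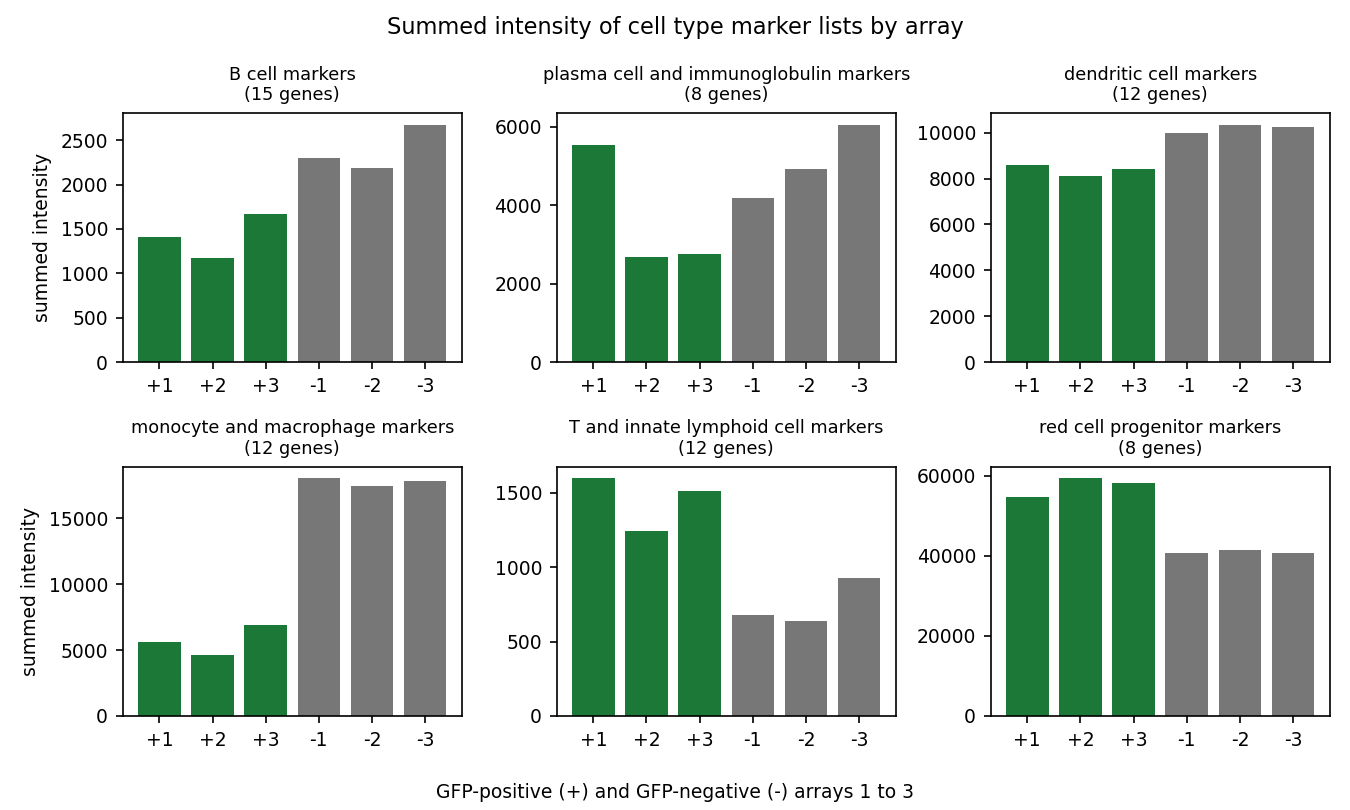
Summed intensity (vertical axis, linear scale from 0) of 6 marker lists in GFP-positive arrays 1 to 3 (green) and GFP-negative arrays 1 to 3 (grey), 1 probe set a gene. Monocyte, B cell and dendritic sums were lower in all GFP-positive arrays, red cell and T sums were higher, and immunoglobulin sums overlapped. A sum follows its brightest genes, and the median log2 difference of the B cell list was 0.24.

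The mean centred profile of Cd74, H2-Aa, H2-Ab1 and H2-Eb1 over the 6 arrays was compared with 9092 other genes of at least median brightness. The closest were Slc39a6, a zinc transporter (Pearson r = 0.9997, n = 6 arrays), Pde8a, a cyclic AMP phosphodiesterase (0.998), Rala, a small GTPase (0.997), Bex1 (0.997) and 4933412E12Rik (0.997). All 5 were lower in GFP-positive arrays, with log2 differences of -0.82, -1.55, -0.35, -1.90 and -1.76. The profile itself was lower in every GFP-positive array, so a close match fixes this direction and it is no further result. The arrays share 2 groups, and 591 of the 9092 genes reached 0.95.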

How the data were processed

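RNA of 6 sorted samples was hybridized to Affymetrix arrays, after amplification of 5 ng with a NuGEN Ovation kit per the labels. The authors deposited a linear intensity for each probe set, obtained with RMA per the submitters' processing notes. The settings of RMA and the return from its log scale are not given in these sources. Scaling between arrays of this kind assumes that most genes do not change. No depth applies to arrays, and their number limits the precision.

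Values were taken to log2 without further normalization, and 64 array controls of 45101 probe sets were left out. Gene names came from the platform annotation, with 1 gene for 34945 probe sets, several for 932 and none for 9160. The groups were tested against each other by limma 3.58.1 under R 4.3.3, using lmFit and eBayes without covariates, 2-sided, with Benjamini-Hochberg adjustment over 45037 probe sets and a threshold of 0.05. For each gene the probe set with the highest overall mean was used. All class II probe sets were named. From each list the called genes were named, or the 4 of largest change where more were called. Uncalled list genes named as examples were chosen after their values were seen. The 5 genes closest in profile were named too. The lists were other class II chains, promoter partners of Ciita, interferon and antigen-presenting cell regulators, class II processing, class I loading, costimulation, and markers of B cells, plasma cells, dendritic cells, monocytes, T and innate lymphoid cells, red cells and the sort. The members and lists were chosen with earlier results of these data known.

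The alternatives tried were a block for the replicate number, a trended robust prior, repeated quantile normalization, median centring, the brighter probe sets, log2 of intensity plus 32, another probe set for a gene, and arrays left out. Same-numbered arrays deviated together at r = 0.02 to 0.05, so they were treated as unpaired. Simulated data had 200 of 45037 probe sets changed, in 5 simulations of this comparison. There limma recovered 1.19% of log2 changes of 0.5, 54.9% of changes of 1 and 95.5% of changes of 2. Fewer probe sets were changed than the 2860 higher and 3452 lower called in the data, so these rates do not carry over directly. Tables used Python 3.11.15, pandas 2.3.3, numpy 2.4.6 and scipy 1.17.1, and figures matplotlib 3.10.9.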

Additional observations from a re-analysis of the deposited data

How the results depend on the processing

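The count of class II probe sets called lower was 7, and it was 4 with the replicate number as a block and 2 without both arrays with immunoglobulin signal. With 1 array left out it ran from 4 (without GFP-negative array 1 or 3) to 6, and no class II probe set was called higher in any of the 13 settings. Both H2-DMa probe sets were called in all 13 settings. Over all probe sets, 2860 were higher and 3452 lower. The higher count was 5218 with array medians subtracted and 681 without both arrays with immunoglobulin signal, where the lower count was 1652. With 1 array left out the higher count ran from 1212 to 2243 and the lower count from 2192 to 3098. The higher count was 1257 and 1212 without GFP-negative array 2 or 3, and 1396 and 1555 without GFP-positive array 2 or 3, and the lower count was 2300 and 2192 without GFP-negative array 2 or 3. Leaving out arrays also leaves fewer samples to fit. Higher probe sets were 45.3% of the calls, and 61.5% with array medians subtracted. With the block, the 3 called H2-Aa probe sets had adjusted p-values of 0.0557, 0.0595 and 0.0717, and the labels do not pair arrays by number. Deviations of same-numbered arrays correlated at 0.019 to 0.055 and those of other pairs at -0.043 to 0.016, so every array correlated best with its own number, but below the 0.1 set for pairing.

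Among the recomputed differences of class II probe sets, 150 kept direction and call, 19 lost the call and 9 turned sign. All sign changes were in probe sets that were not called. With medians subtracted, Ciita 1447075_at was at 0.038 and H2-Ab1 1450648_s_at at 0.0064. Without both arrays with immunoglobulin signal, H2-Ab1 1450648_s_at was at 0.0198 and 1451721_a_at at -0.104. With 1 array left out, H2-Ab1 1425477_x_at ran from -0.0708 to 0.246 and 1451721_a_at from -0.104 to 0.224. Of the recomputed list counts, 295 changed little or not at all and 69 moved further. The class I genes called lower numbered 6, and 12 with the trended robust prior. Their count was 9 with the brighter probe sets or with log2 of intensity plus 32, and 2 to 7 with 1 array left out. The causes of these changes were not tested.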

Other observations

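H2-Ea, the alpha chain gene of the E molecule and a transcribed pseudogene in the RefSeq table, was examined after its values were seen. Its 3 probe sets lay below the median of all 6 arrays. The brightest, 1422891_at, was at 5.29, 5.01 and 5.28 in GFP-positive arrays, against 4.60, 4.88 and 4.56 in GFP-negative arrays, a log2 difference of 0.51 (limma adjusted p = 0.0538). The beta chain gene H2-Eb1, by contrast, had a difference of -1.01 on the same scale.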
